A study of Mus musculus with 16 samples.

Results

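The regions described here carried an H3K4me3 peak in the B6-TgYF list and in the B6 list but none in the B6-TgWT list. Peaks of the 3 lists that shared at least 1 bp were joined into regions on chromosomes 1 to 19, and 4959 of the 59204 regions met this rule. They are called YF/B6 regions below. They were chosen by the measured peak calls, so their presence, absence and strength in the 3 lists are given as descriptions, with no test. The deposited files hold no values per replicate, so no spread between replicates could be set beside any value below, and the 95% Wilson intervals cover counting error over regions only. Absence of a peak from a list does not show that the mark was absent from the cells.

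H3K4me3 was profiled in whole testis at 13 days post-partum in B6-TgWT mice (strain label C57BL/6J-Tg(RP23-159N6*)43Bdm), B6-TgYF mice (C57BL/6JRj-Tg(RP23-159N6*)23Bdm) and B6 mice (C57BL/6JOlaHsd), which carry no transgene. Each line had 2 ChIP libraries and 1 input, and 1 deposited peak list for both ChIP libraries. As background on the study, the WT transgene carries a Prdm9 allele whose active product binds other motifs than the B6 protein, and the YF transgene carries a version of it with a mutated catalytic domain. The strain labels of these 3 lines carry no altered endogenous Prdm9 allele, while Prdm9tm1Ymat is named for other lines of the series. Each transgene was represented by 1 line on a C57BL/6 substrain of its own, so transgene, line and substrain cannot be told apart. Whole testis at this age holds somatic cells as well as germ cells, and the lists do not separate them. The B6 file is named with 12, while its samples are labelled 13 days.

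PRDM9 is a meiotic histone methyltransferase whose zinc fingers bind DNA motifs. At the sites it binds it places H3K4me3, the mark that is otherwise typical of active promoters, and such sites become hotspots of meiotic double-strand breaks. Alleles differ in their zinc fingers, so that mice of different strains use different sets of hotspots. The lists hold no sequence and no read counts, and no mm9 annotation was used here, so the members could not be sorted into PRDM9 sites, promoters and other regions.

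A single shared bp with a B6-TgWT peak is enough to keep a region from being a member. The members nearest to that limit lay 47 and 53 bp from a B6-TgWT peak, on chromosome 10 at 77473108 to 77473535 (mm9, as all coordinates below) and on chromosome 4 at 42961528 to 42961866. On its other side lay regions of all 3 lists. In each, the largest overlap of a B6-TgWT peak with a peak of the other 2 lists was taken. The lowest of these values was 163 bp, on chromosome 9 at 88753716 to 88753959, followed by 169 bp on chromosome 13 at 67783917 to 67784170. No region of all 3 lists had a largest overlap under 100 bp. The narrowest B6-TgWT peak there, taking the strongest of each region, was also 163 bp wide. Smaller overlaps within a region were not counted, so cases near 1 bp were not sought on that side. Within 500 bp of a B6-TgWT peak lay 413 YF/B6 regions (8.33%), and for 387 of these the nearest B6-TgWT peak belonged to a region of all 3 lists. The median distance to the nearest B6-TgWT peak was 11354 bp. Other regions missing from a list had like values. Of regions with B6-TgWT and B6 peaks but no B6-TgYF peak, 10.3% lay within 500 bp of a B6-TgYF peak, with a median of 12305 bp. Of regions of the B6 list alone, 9.43% lay within 500 bp of a B6-TgWT peak, with a median of 12505 bp.

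YF/B6 regions were weak in both lists that held them, and each was nearly always a single peak. Fold enrichment over background, as the authors' peak caller gave it, had a median of 3.92 (quartiles 3.62 to 4.4) in the B6-TgYF list and 4.71 (quartiles 3.92 to 5.58) in the B6 list. The median percentile of a member was 13.4 within the B6-TgYF list and 25.2 within the B6 list. The lowest and highest folds were 1.55 and 12.87 in B6-TgYF and 1.41 and 13.14 in B6. The −log10 p of the peaks had a median of 15.57 in B6-TgYF and 26.55 in B6. Weakness was not particular to members. Regions with B6-TgWT and B6 peaks but no B6-TgYF peak had median percentiles of 13.5 in B6-TgWT and 23.4 in B6. For regions of the B6 list alone the median percentile was 13.0. In 4921 of the 4959 regions (99.2%) there was 1 B6-TgYF peak and 1 B6 peak. The same held for 33777 of 34977 regions of all 3 lists (96.6%). The plot of members by decile shows the lean towards the weak end: 1863 members (37.6%) fell in the weakest decile of the B6-TgYF list and 851 (17.2%) in that of the B6 list, while the B6 list contributed most members from its decile 3, with 1310 (26.4%).

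**Figure D1:**
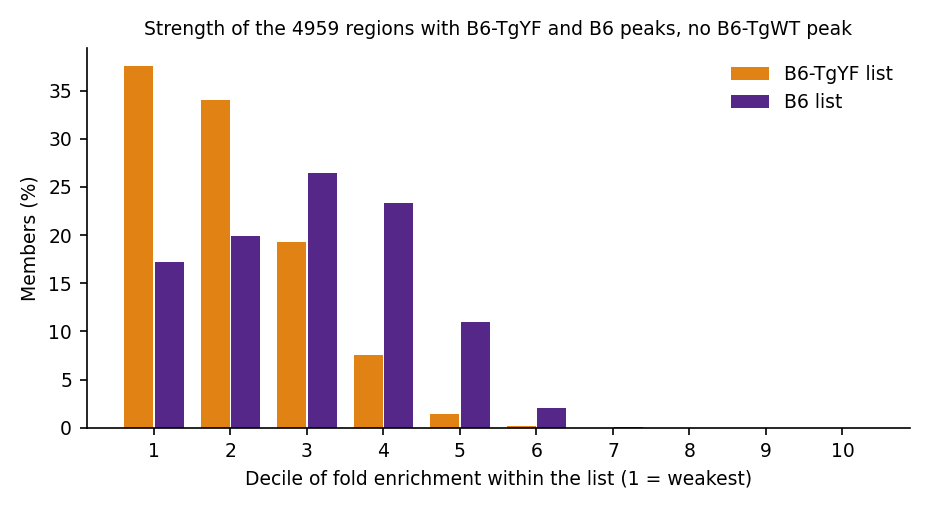
Share of the 4959 YF/B6 regions (y axis, percent) in each decile of fold enrichment (x axis, 1 is the weakest) of the B6-TgYF list (orange) and the B6 list (purple). Members crowd into deciles 1 to 3 of the B6-TgYF list and 1 to 4 of the B6 list, and deciles 8 to 10 hold 0 members in either list.

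The summits of both lists lay close together in most members, as in shared regions. For members in deciles 3 to 5 of the B6 list, the B6-TgYF and B6 summits were within 100 bp in 78.0% (95% Wilson interval 76.5 to 79.5, 2351 of 3013 regions). In regions of all 3 lists in the same B6 deciles the share was 76.3% (interval 75.4 to 77.2), and the median distance between summits was 43 bp in both sets. Across the 4959 members, the widths of the B6-TgYF and B6 peaks ranked alike (Spearman's rho 0.77), while their folds ranked less alike (rho 0.30). These correlations are across regions that share libraries, regions are not replicates, and fold spans a narrow range among members. In the 10125 regions of all 3 lists with a B6 peak in deciles 1 to 5, rho between B6-TgYF and B6 was 0.83 for width and 0.35 for fold.

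How often a region with B6-TgYF and B6 peaks lacked a B6-TgWT peak depended steeply on its strength in B6. The 8517 regions of the B6 list alone also lacked a B6-TgWT peak, but are outside these shares. Of 39936 regions with B6-TgYF and B6 peaks, the 4959 members were 12.4%, a contrast that the rule itself used. In the mirror comparison, 1303 of the 36280 regions with B6-TgWT and B6 peaks (3.59%) had no B6-TgYF peak, and these 1303 are called mirror regions. The number of YF/B6 regions per mirror region was 3.81 (interval 3.58 to 4.05, counting error only). With the strongest 50% of each list this ratio was 1.21, and with lists of equal length it was 11.2. A common lowest −log10 p gave 3.13, below the interval. The lowest −log10 p was 12 in the B6-TgWT list and 11 in each of the others. Median fold over the whole list was 6.81 in B6-TgWT, 7.52 in B6-TgYF and 7.72 in B6.

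Set against B6 strength, members outnumbered mirror regions in each decile that held any. In decile 1 of B6 fold, 62.5% of regions with B6-TgYF and B6 peaks lacked a B6-TgWT peak (interval 59.9 to 65.0), and 34.0% of regions with B6-TgWT and B6 peaks lacked a B6-TgYF peak (interval 30.7 to 37.4). In decile 4 the shares were 27.9% (interval 26.5 to 29.2) and 9.06% (interval 8.13 to 10.1). In decile 6 they were 2.09% (interval 1.73 to 2.53) and 0.287% (interval 0.171 to 0.481). Ranked by −log10 q in place of fold, the share lacking a B6-TgWT peak was 25.7% in decile 4, 7.47% in decile 5 and 0.824% in decile 6, where ranking by fold gave 27.9%, 11.3% and 2.09%. Deciles 8 to 10 had 0 missing regions of either kind, with an upper interval bound of 0.0769% in decile 8. The ratio of members to mirror regions was 3.24 in decile 1 (interval 2.82 to 3.72), 3.88 in decile 4 (interval 3.41 to 4.40) and 4.81 in decile 5 (interval 3.93 to 5.89). In decile 6 it was 7.43 (interval 4.28 to 12.9) with 14 mirror regions, and in decile 7 it was 5 (interval 0.775 to 32.3) with 5 members and 1 mirror region. The intervals of deciles 4 to 7 overlapped, as did those of all neighbouring deciles from 1 to 7.

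**Figure D2:**
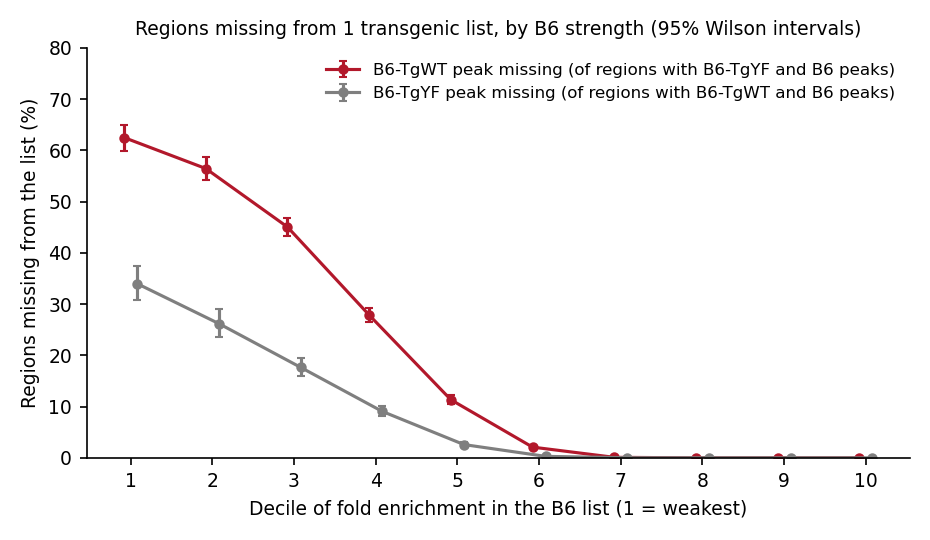
Share of regions missing from the B6-TgWT list (red, among regions with B6-TgYF and B6 peaks) and from the B6-TgYF list (grey, among regions with B6-TgWT and B6 peaks), by decile of fold enrichment in the B6 list (x axis, 1 is the weakest), with 95% Wilson intervals. Red lies above grey from 62.5% against 34.0% in decile 1 to 2.09% against 0.287% in decile 6, and both are at 0 from decile 8 on.

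The stronger 50% of the B6 list held 109 members (0.437% of its regions with B6-TgYF and B6 peaks), spread over all 19 chromosomes. The mirror set had 15 there (0.0603%), a ratio of 7.27 (interval 4.26 to 12.4), against 3.77 in the weaker 50%. The ratio in the stronger 50%, 7.27 included, was chosen as a result after the data were seen. It was 6.57 with peaks extended by 500 bp and 7.27 with 50% of the shorter peak covered. A common lowest −log10 p gave 6.35 and strength by −log10 q gave 7.33. These values lay within that interval. Keeping only the strongest 50% of each list gave 1.21 with 1670 members, below the interval. All B6 peaks kept there were in this 50%, but a peak counted as missing could be one in the weaker 50% of its list. With lists of equal length the ratio was 51, outside the interval. That setting kept 41558 peaks per list, the full B6-TgYF list but not all 46631 B6-TgWT peaks. Dropping B6-TgWT peaks can add members and remove mirror regions, so the rise is partly by construction. Fold enrichment of these 109 started at 7.72 in B6 and had a median of 4.82 in B6-TgYF (quartiles 4.06 to 5.62). In the B6-TgYF list their median percentile was 27.0, 13 lay in the weakest decile, and only 4 were in the stronger 50% of both lists. Their number rests on the matching rule and on list length. Lists of equal length gave 612 such regions. Matching summits within 500 bp joined no regions and counted B6 peaks with a B6-TgYF summit but no B6-TgWT summit in reach. In the stronger 50% these were 444 B6 peaks, and a B6-TgWT peak with its summit farther away could still overlap them.

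Regions of all 3 lists are not members, and in B6 deciles 1 to 7 a larger share of them fell in the weakest decile of the B6-TgWT list than in that of the B6-TgYF list. The shares were close in decile 1, at 33.9% and 31.9%, and in decile 2, at 30.7% and 27.5%, B6-TgWT before B6-TgYF. Of the 4253 regions of all 3 lists in decile 5 of B6, the B6-TgWT peak fell in the weakest decile of its list in 15.5% and the B6-TgYF peak in 9.55%. In decile 6 the shares were 7.91% and 3.18% of 4869 regions, and in decile 7 they were 1.56% and 0.260% of 4993 regions. The medians did not follow these tails throughout. In decile 5, the median of the percentile minus that in B6 was −16.1 for B6-TgWT peaks and −12.2 for B6-TgYF peaks. It was −8.35 for B6-TgWT peaks and −8.85 for B6-TgYF peaks in decile 7, and −2.57 for B6-TgWT peaks and −5.42 for B6-TgYF peaks in decile 8. As the lists differ in length, their percentiles alone show no change.

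The B6 peaks of YF/B6 regions had a lower median width than those of shared regions in the same decile of B6 fold. Over all members the median width was 658 bp (quartiles 490 to 851) in B6-TgYF and 741 bp (quartiles 562 to 968) in B6. In decile 4 of B6 fold, the B6 peak had a median width of 775 bp in members (quartiles 593 to 1015), 843 bp in mirror regions (quartiles 642 to 1112) and 937 bp in regions of all 3 lists (quartiles 716 to 1207). In decile 6 the medians were 891 bp in members and 1106 bp in regions of all 3 lists. In decile 1 they were 687 bp in members and 694 bp in mirror regions. Regions of the B6 list alone were narrower than members in deciles 1 to 5, with a median of 723 bp in decile 4. A lower width than in shared regions was thus not particular to members. The quartile ranges overlapped in each decile. The B6-TgYF peaks showed the same order within the B6-TgYF list: in its decile 4, members had a median of 752 bp and regions of all 3 lists 941 bp. Matched on −log10 q in place of fold, the difference in decile 4 of B6 was −101 bp, members minus shared, against −162 bp when matched on fold.

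**Figure D3:**
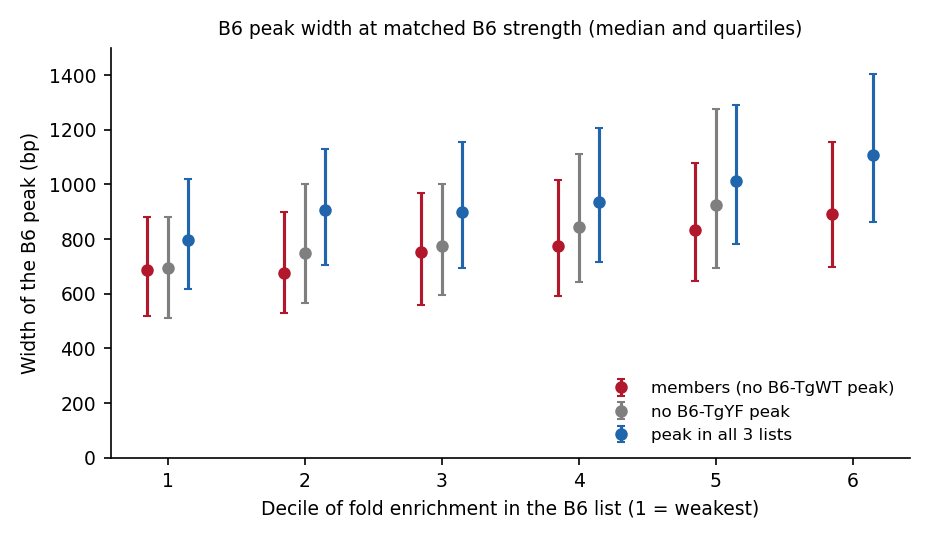
Width of the B6 peak in bp (y axis, points are medians, bars run from the lower to the upper quartile) in members (red), regions lacking a B6-TgYF peak (grey) and regions of all 3 lists (blue), by decile of B6 fold enrichment (x axis). In decile 4 the medians are 775, 843 and 937 bp, and the quartile ranges overlap.

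Among regions with B6-TgYF and B6 peaks, narrow B6 peaks lacked a B6-TgWT peak more often than wide ones of like fold. In decile 2, 77.0% (interval 73.0 to 80.5) of regions with a B6 peak of up to 600 bp lacked it, against 26.3% (interval 20.6 to 33.0) of those over 1200 bp. In decile 5 the shares were 23.2% (interval 19.7 to 27.0) and 6.22% (interval 5.08 to 7.59). The mirror comparison went the same way, with 43.0% (interval 36.2 to 50.1) and 17.6% (interval 12.7 to 24.1) in decile 2.

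Distances to regions found in B6-TgWT alone were much alike for YF/B6 regions and other B6 regions. Such a region was within 50 kb of 34.0% of the members (interval 32.7 to 35.3) at B6 deciles 1 to 6. The share was 33.9% for mirror regions (interval 31.4 to 36.5), 33.5% for regions of the B6 list alone (interval 32.5 to 34.5) and 35.7% for regions of all 3 lists (interval 34.9 to 36.4). Median distances were 84.1, 82.9, 88.0 and 78.8 kb in the same order. Within 10 kb the shares were 7.61% for members and 8.61% for regions of all 3 lists.

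At B6 deciles 4 to 7, shared regions next to a YF/B6 region had much the same rank in the B6-TgWT list as those far from one. Among regions of all 3 lists in B6 deciles 4 to 7, the B6-TgWT percentile minus the B6 percentile had a median of −12.6 (quartiles −23.5 to −2.53) for the 471 within 2 kb of a member. It was −12.3 (quartiles −24.1 to −2.35) for the 5364 more than 200 kb from one. The B6-TgYF percentile minus the B6 percentile was −10.7 in both bins. At B6 deciles 8 to 10 the values near a member were lower in both transgenic lists. The B6-TgWT difference was −3.10 within 2 kb (276 regions) and −2.16 beyond 200 kb (5052 regions), and the B6-TgYF difference was −5.57 within 2 kb and −3.78 beyond 200 kb.

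Members were found on every chromosome from 1 to 19, in unequal shares. On chromosome 10, 393 of 2512 regions with B6-TgYF and B6 peaks were members (15.6%, interval 14.3 to 17.1), and on chromosome 2, 286 of 3062 (9.34%, interval 8.36 to 10.4). Within the weaker 50% of the B6 list, where 32.4% were members over all chromosomes, the share ran from 27.3% on chromosome 2 (interval 24.7 to 30.1) to 37.0% on chromosome 6 (interval 33.7 to 40.5). In the mirror comparison the share over all chromosomes was 11.3%. Chromosomes 10 and 5 followed chromosome 6 with 35.8% (interval 33.0 to 38.7) and 35.2% (interval 32.4 to 38.1). For mirror regions the lowest share was 7.61% on chromosome 17 and the highest 14.7% on chromosome 19, so the order of chromosomes was not that of the members. Along the chromosomes, the share of members in the weaker 50% was 35.9% in the first of 10 equal parts of the span covered by peaks (interval 32.9 to 38.9), and 30.9% in the last (interval 29.0 to 32.9). The highest share was 36.9% in part 8 (interval 34.5 to 39.3) and the lowest 29.0% in part 9 next to it (interval 27.0 to 31.0), so there was no steady trend along the chromosomes.

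**Figure D4:**
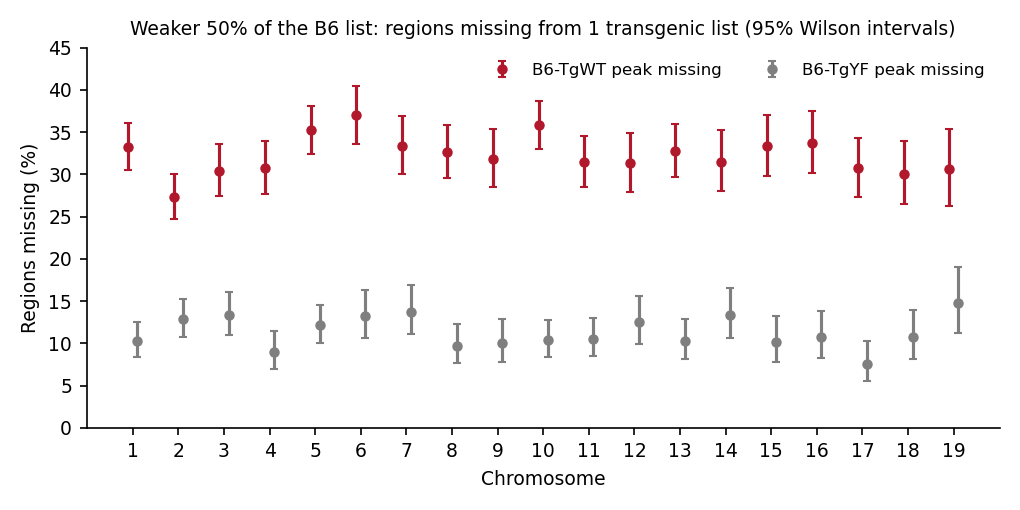
Share of regions missing from the B6-TgWT list (red) and from the B6-TgYF list (grey) on each chromosome (x axis), among regions whose B6 peak is in the weaker 50% of its list, with 95% Wilson intervals. The red points run from 27.3% on chromosome 2 to 37.0% on chromosome 6, all above the grey ones.

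Some YF/B6 regions followed each other with no B6-TgWT peak between them. There were 520 such runs of 2 or more, with 1110 members (22.4%) and a median length of 28.3 kb. No such count was set beside it for mirror regions or regions of the B6 list alone, so it does not show that members cluster. Runs of 2 numbered 455, runs of 3 numbered 60 and runs of 4 numbered 5. The shortest run of 4 lay on chromosome 10 at 122231150 to 122294727, with B6-TgYF folds of 3.97 to 12.87 and B6 folds of 4.55 to 13.14. The next lay on chromosome 10 at 66103377 to 66201181, with folds of 4.35 to 6.13 in B6-TgYF and 5.58 to 6.12 in B6. Chromosome 8 had a pair of them, 32408634 to 32547331 (138.7 kb) and 115112852 to 115257706 (144.9 kb), and chromosome 13 had the longest, 40106264 to 40271867 (165.6 kb).

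The strongest YF/B6 region of all lay in the first of these runs, on chromosome 10 at 122238848 to 122240499. Its fold enrichment was 12.87 in B6-TgYF and 13.14 in B6, at percentiles 66.8 and 68.2 of those lists. Both peaks were nearly 1.5 kb wide, at 1478 bp in B6-TgYF and 1471 bp in B6, and the nearest B6-TgWT peak was 82.6 kb away. Of the 10 strongest members, 3 were in this part of chromosome 10. The second of them, at 121965210 to 121965876, had folds of 7.08 in B6-TgYF and 12.03 in B6, and the third of them, at 122293409 to 122294727, had 6.09 in B6-TgYF and 10.24 in B6.

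The surroundings of that region were looked at after its values were seen. Within 500 kb of its centre lay 35 regions, of which 13 were members and 16 were shared by all 3 lists. The median member had 3 members in such a window, itself included. The highest count was 14, around the member at 121779237 to 121780667 in the same part of chromosome 10, where 10 regions were shared by all 3 lists. Windows with 13 members also occurred on chromosomes 5, 15, 17 and 18, and elsewhere on chromosome 10, each with 30 or more shared regions. Shared regions of the stretch were of both kinds, lowest or not lowest in the B6-TgWT list. The region at 121884771 to 121887415 had folds of 4.41 in B6-TgWT, 13.12 in B6-TgYF and 12.66 in B6, at percentiles 21.4, 67.2 and 67.2. The region at 122349603 to 122350934 had folds of 3.07 in B6-TgWT, 7.68 in B6-TgYF and 9.62 in B6. Of the 16 shared regions of the stretch, 9 (56.2%) had their lowest fold in B6-TgWT, as did 21596 of all 34977 shared regions (61.7%), so the count is no feature of the stretch. The region at 122323043 to 122324299 had folds of 8.82 in B6-TgWT, 5.61 in B6-TgYF and 5.99 in B6. The 3 folds come from separately called lists and do not measure a change.

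**Figure D5:**
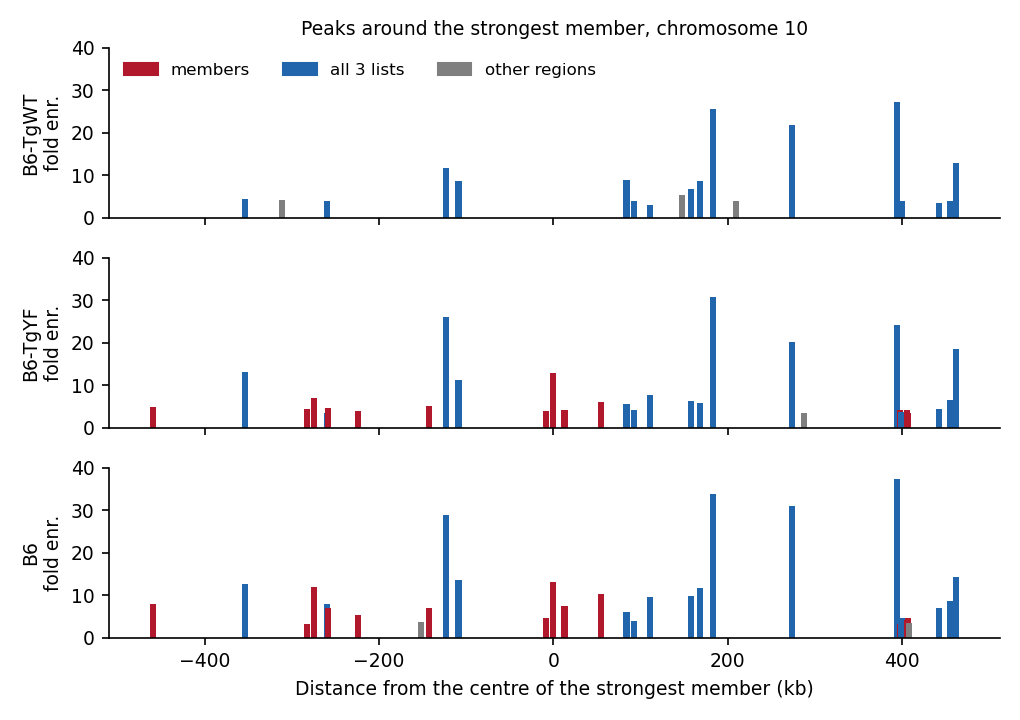
Fold enrichment of each peak (y axis) in the B6-TgWT, B6-TgYF and B6 lists against the distance in kb from the centre of the strongest member on chromosome 10 (x axis), with members in red, regions of all 3 lists in blue and other regions in grey. The 13 members have bars in the lower panels only, and bars closer than their drawn width overlap.

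The other 7 of the 10 strongest members lay on 7 chromosomes. The one on chromosome 5 at 137311946 to 137312924 had folds of 8.27 in B6-TgYF and 10.96 in B6. The one on chromosome 6 at 34201987 to 34203178 had 7.77 in B6-TgYF and 9.63 in B6. The one on chromosome 12 at 112522738 to 112523405 had 7.67 in B6-TgYF and 9.66 in B6. With the strongest member on chromosome 10, these 3 made up the 4 members in the stronger 50% of both lists. On chromosome 7, the member at 147571946 to 147572609 had folds of 6.93 in B6-TgYF and 9.41 in B6, with the nearest B6-TgWT peak 89.5 kb away. On chromosome 8, the member at 24138096 to 24139398 had 7.45 in B6-TgYF and 8.31 in B6. On chromosome 1, the member at 75019284 to 75020939 had 7.14 in B6-TgYF and 8.01 in B6. On chromosome 11, the member at 4170898 to 4172046 had 6.43 in B6-TgYF and 8.93 in B6, and its nearest B6-TgWT peak was 3.28 kb away.

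On the other chromosomes, the strongest members had lower ranks. On chromosome 3 it was the region at 51849786 to 51851420, with folds of 6.48 in B6-TgYF and 8.78 in B6, and 624 bp from a B6-TgWT peak. On chromosome 2 it was 57468669 to 57469741, where the B6-TgYF fold of 8.02 stood above the B6 fold of 6.97. The B6-TgYF fold was also the higher one in 3 others. These were 58898396 to 58899072 of chromosome 13 (7.85 in B6-TgYF, 6.99 in B6), 25134423 to 25135698 of chromosome 19 (7.17 in B6-TgYF, 6.54 in B6) and 83348601 to 83349562 of chromosome 15 (7.17 in B6-TgYF, 5.96 in B6). On chromosome 4 it was 150708886 to 150709749 (6.6 in B6-TgYF, 8.35 in B6), and on chromosome 9 it was 97024458 to 97025365 (6.43 in B6-TgYF, 7.47 in B6). Chromosome 14 had its strongest member at 103301960 to 103302751 (5.79 in B6-TgYF, 7.87 in B6), and chromosome 17 at 29667164 to 29669129 (6.2 in B6-TgYF, 7.06 in B6). A B6-TgWT peak lay only 98 bp from the strongest member of chromosome 16, at 35651574 to 35652032 (6.78 in B6-TgYF, 7.83 in B6). One lay 65 bp from that of chromosome 18, at 37100555 to 37101120 (5.95 in B6-TgYF, 6.84 in B6).

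None of the 5 widest members was among the 10 strongest. The widest was the region on chromosome 15 at 76008846 to 76012503, which spanned 3658 bp with folds of 4.38 in B6-TgYF and 3.49 in B6. It was followed by chromosome 5 at 115992458 to 115995187 (2730 bp), chromosome 1 at 182312319 to 182314980 (2662 bp), chromosome 17 at 25215549 to 25218106 (2558 bp) and chromosome 9 at 7832191 to 7834682 (2492 bp). Of these 5, the one on chromosome 1 had the highest folds, 5.99 in B6-TgYF and 6.86 in B6.

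Of the 5 members farthest from any B6-TgWT peak, the first 3 were on chromosome 5. The region at 59487585 to 59488088 was 1217 kb from a B6-TgWT peak and had folds of 3.64 in B6-TgYF and 4.71 in B6. The region at 56015009 to 56015447 was 1034 kb from one, with folds of 6.12 in B6-TgYF and 6.84 in B6, and its 2 summits were at the same base. The region at 80243881 to 80244756 was 883.6 kb from one. The next were on chromosome 17 at 92776137 to 92776517 and on chromosome 3 at 110729588 to 110730878.

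In the mirror set, the strongest regions had peaks in B6-TgWT and B6 only. They lay on chromosome 18 at 32179750 to 32180237, with folds of 6.69 in B6-TgWT and 10.2 in B6, on chromosome 10 at 61295212 to 61298015 (10.68 in B6-TgWT, 6.32 in B6), and on chromosome 3 at 129638388 to 129639245 (10.03 in B6-TgWT, 6.33 in B6). Their mean percentiles over both lists were 55.0, 54.3 and 53.4, where the strongest YF/B6 region reached 67.5.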

How the data were processed

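Of 16 samples, the 6 H3K4me3 libraries and 3 inputs at 13 days post-partum stand behind the 3 deposited lists used; the 7 DMC1 libraries were not analysed here. Samples were grouped by the titles in the labels. Tools named in the submitters' processing notes, without role or version, are MACS2, BWA, Bowtie2 and CASAVA, and the build is mm9. The way replicates were combined and the cutoff: not given in the sources used here.

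The lists have 10 columns without a header and follow the layout of MACS narrow peaks. Fold enrichment was deposited by the authors as a ratio over background. The deposited −log10 p and −log10 q are the authors' values. The deposited score is the −log10 p on another scale and was not used; the deposited summit position is in bp from the peak's start. The lists held 46631 peaks in B6-TgWT, 41558 in B6-TgYF and 50013 in B6 on chromosomes 1 to 19, with a lowest −log10 p of 12, 11 and 11. Read depth is unknown.

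Peaks sharing at least 1 bp were joined with Python 3.11.15, numpy 2.4.6, pandas 2.3.3 and scipy 1.17.1, and figures drawn with matplotlib 3.10.9. A region's value in a list is that of its peak with the highest fold. Percentiles and deciles were taken within each list. Shares have 95% Wilson intervals, which cover counting error over regions only, and ratios have intervals computed from these. No test was run, as no list holds values per replicate. The code was tested on simulated data. Peaks extended, summits matched, lists shortened or strength by −log10 q were the alternatives. Named regions were the 10 strongest members by mean percentile, the strongest of each chromosome, the 5 widest, the 5 farthest from a B6-TgWT peak, the 5 largest runs (shortest first among equals) and the 3 strongest mirror regions. The rule, members and comparisons were chosen with earlier results of these data known. Gene tables at hand were of GRCm38, so no gene, promoter or sequence was assigned to a region.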

Additional observations from a re-analysis of the deposited data

How the results depend on the processing

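No paired analysis was possible because replicates have no separate lists, and leaving out a replicate was not run for the same reason. Promoter overlap and sequence were not run. Of 61 alternatives over 16 results, 34 stayed within the interval or within 1.5 times the count, and 27 did not. The cause was not tested where overlap rules or −log10 q moved a value, while the other settings differ by construction in the peaks, regions or distance used. Unknown depth limits every call of absence.

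Peaks extended by 500 bp gave a share of 11.5% lacking a B6-TgWT peak, a median B6 width of 759 bp and 32.0% with a region of B6-TgWT alone within 50 kb. Summits within 500 bp counted B6 peaks in place of regions. This gave a ratio to the mirror count of 3.32, a share of 13.8% and 444 B6 peaks in the stronger 50%. The strongest 50% of each list gave 1670 members, all 1670 in the stronger 50% by construction, a ratio of 1.21 and a share of 8.41%. Lists of equal length, which dropped B6-TgWT peaks but no B6-TgYF peaks, gave a ratio of 11.2, a share of 16.0% and 612 in the stronger 50%. The ratio in the stronger 50%, a result chosen after seeing the data, was 51 with lists of equal length. The other settings run for it gave 6.35 to 7.33, while the ratio of 1.21 above also covers only that 50% of B6. A common lowest −log10 p gave a ratio of 3.13, a share of 11.5% and 53.9% in decile 2. Strength by −log10 q gave 70.3%, 50.4%, 25.7%, 7.47% and 0.824% in deciles 2 to 6, and a width difference of −101 bp in decile 4. Distances of 10 and 100 kb gave 7.60% and 55.8%. The weaker 50% of B6 gave 27.3% for the lowest chromosome and 37.0% for the highest.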
